A study of Mus musculus with 12 samples.

Results

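The genes described here encode the machinery of V(D)J recombination: the recombinase (Rag1 and Rag2), terminal deoxynucleotidyl transferase or TdT (Dntt), and the factors that close the cut ends by non-homologous end joining (Xrcc5, Xrcc6, Prkdc, Dclre1c, Lig4, Xrcc4 and Nhej1). These 10 genes were chosen by name for their function out of 43629 genes in the deposited table, not by a rule on the counts. Earlier results of these data were known when they were chosen. All 10 passed the filter on low counts, which left 13944 genes for testing.

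In developing lymphocytes RAG1 and RAG2 together cut the antigen receptor loci beside their gene segments, leaving hairpin-sealed coding ends and blunt signal ends. Ku, the dimer of the Xrcc5 and Xrcc6 products, binds the ends and recruits the kinase DNA-PKcs (Prkdc), Artemis (Dclre1c) opens the hairpins, TdT adds untemplated nucleotides, and XRCC4 with DNA ligase IV, aided by XLF (Nhej1), seals the joint. In the thymus the DN3a stage rearranges the T cell receptor beta locus, and cells whose rearrangement succeeded pass beta selection and divide as DN3b cells.

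Pre-T cells sorted from the thymus of C57BL/6 mice were profiled by total RNA sequencing in 12 libraries. Control DN3a and control DN3b cells carried floxed alleles of both RNA-binding protein genes (Zfp36l1fl/fl, Zfp36l2fl/fl) with no Cre transgene in their labels, and the DN3-like cells called DCKO (double conditional knockout) carried the same alleles with CD2cre, a Cre transgene driven by CD2 sequences. No treatment is named in the labels. Each group held 4 libraries that the design text calls biological replicates, and libraries are numbered as in their titles. The labels do not divide the DCKO cells into DN3a and DN3b, so they were set against each control stage.

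Libraries held 28479157 to 45975678 counts. Zfp36l1 stood at 1.64 to 3.80 CPM (counts scaled to library size with edgeR's TMM factors) in DCKO against 9.63 to 43.9 in the control libraries, and Zfp36l2 at 45.4 to 87.9 CPM against 287 to 685, so both targeted transcripts were low in every library labelled DCKO; the deposited table holds 1 count per gene and does not separate exons. All 8 listed DN3 markers were detected in every group, with summed levels of 3369 to 4497 CPM for DN3a, 1659 to 2572 for DN3b and 2829 to 3326 for DCKO. The markers in the sum did not move alike. In that order Cd3g lay at 1632 to 1888, 546 to 1062 and 1720 to 1970 CPM. Il2ra lay at 516 to 946, 92.0 to 189 and 115 to 299 CPM, and Thy1 at 395 to 576, 617 to 787 and 439 to 663 CPM. All 10 listed markers of cycling cells were detected, with sums of 421 to 1785, 2630 to 5130 and 4418 to 5131 CPM. Of the markers of other cells, all 8 of the B cell list summed to 10.6 to 61.3 CPM, almost all of it Cd79b, with Ms4a1 at 0 to 0.48 and Pax5 at 0 to 0.032 CPM. The 7 listed double-positive markers summed to 846 to 1595 CPM, with Cd4 at 0.16 to 2.34, and Cd8b1 lay at 0.31 to 0.71 CPM for DN3a, 8.69 to 26.7 for DN3b and 2.88 to 10.5 for DCKO. The 8 myeloid and dendritic markers summed to 8.40 to 40.1 CPM, with Siglech at 0 in DCKO and at 0.065 CPM or less in the controls. Most of the sum was Lyz2 (18.2 to 29.8 CPM for DN3a, 1.01 to 8.83 for DN3b and 6.12 to 14.3 for DCKO) and Flt3. Flt3 lay at 5.88 to 8.69, 6.48 to 8.67 and 11.2 to 17.9 CPM in that order. The 8 stroma and erythroid markers summed to 84.3 to 288 CPM. Most of this was Pecam1 (69.4 to 161 CPM) and Epcam (8.55 to 129 CPM). Hbb-bs stood at 1.56 to 16.6 CPM, and Krt5 at 0 in DN3a. The 7 progenitor markers summed to 20.8 to 62.1 CPM, and the 4 gamma-delta markers matched out of 7 listed to 97.7 to 257 CPM. The part of these markers in the results below was not tested. In bulk libraries fewer cells of a type and less RNA per cell cannot be told apart.

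Levels were compared between genes per kilobase of annotated exon. In DN3a, Dntt led with 1169 ± 107 CPM per kilobase (SD, n = 4), followed by Rag1 at 274 ± 75.8, Xrcc6 at 135 ± 10.8, Rag2 at 51.8 ± 6.17, Xrcc5 at 24.3 ± 3.05, Lig4 at 15.4 ± 1.50 and Prkdc at 12.7 ± 1.43. Nhej1 (5.74 ± 0.29), Dclre1c (5.12 ± 0.71) and Xrcc4 (4.97 ± 0.57 CPM per kilobase) came last, and their spreads overlapped. By mean CPM Dntt and Rag1 ranked 10 and 16 among all 13944 genes tested. In DN3b Dntt led again, and the spreads of Rag1 (151 ± 64.1) and Xrcc6 (127 ± 4.08 CPM per kilobase) overlapped, with Rag1 below Xrcc6 in libraries 2 to 4. There Xrcc5 (41.9 ± 7.62) stood above Rag2 (20.6 ± 8.50 CPM per kilobase), and the spreads of Lig4 (10.97 ± 1.09) and Prkdc (9.85 ± 1.12) overlapped. In DCKO, Rag1 reached 653 ± 321 CPM per kilobase and rank 6 among all genes by mean CPM. There the spreads of Rag2 (50.1 ± 14.9) and Xrcc5 (32.6 ± 5.77 CPM per kilobase) overlapped. The spread of Nhej1 (7.66 ± 1.94) overlapped those of Prkdc (9.11 ± 0.94) and Xrcc4 (6.46 ± 0.64 CPM per kilobase), which did not overlap each other.

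**Figure D1:**
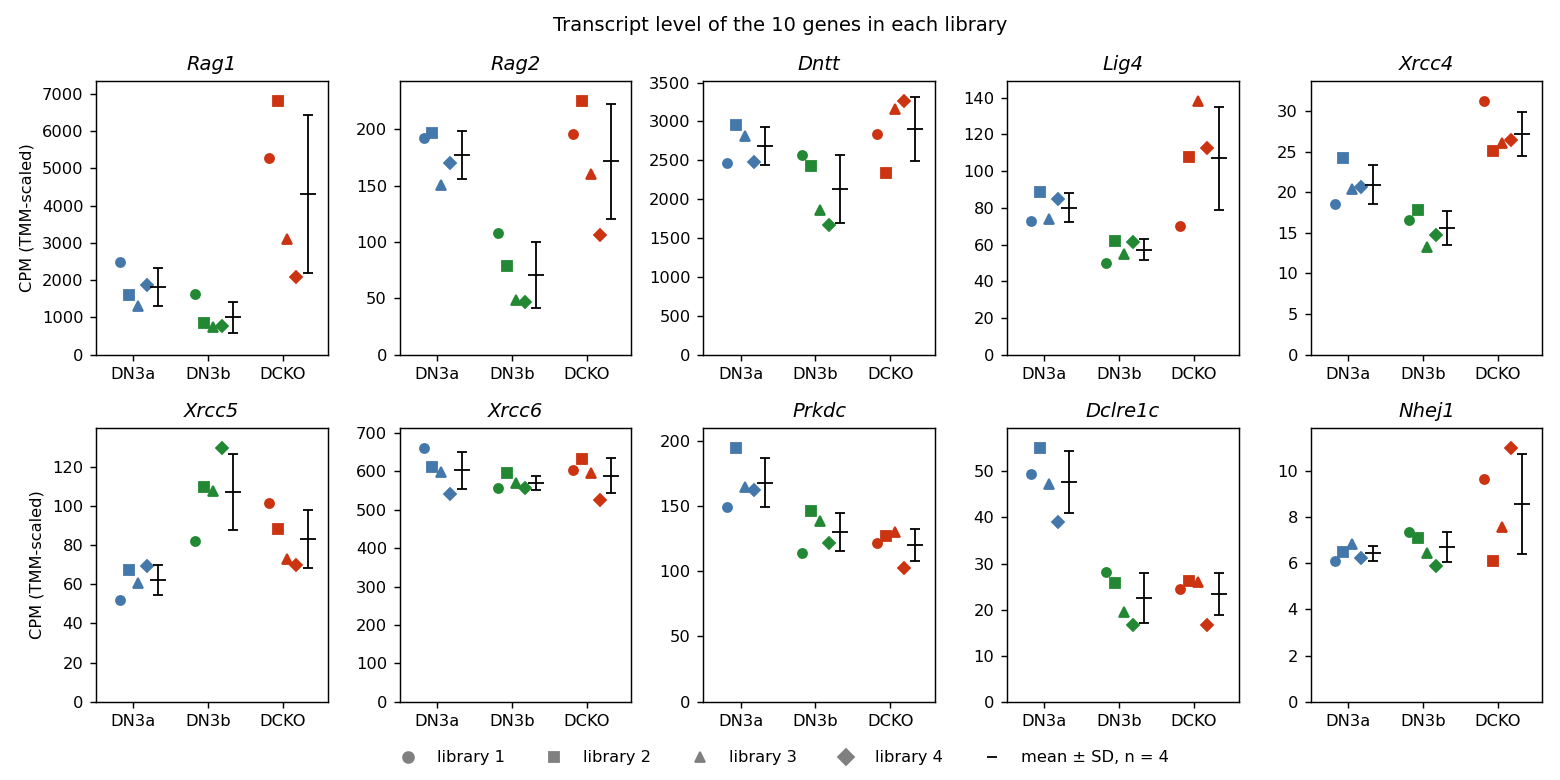
Level of each gene in CPM (vertical axes, linear and starting at 0) in the 4 libraries of DN3a, DN3b and DCKO; symbols give the library number, and the dash with its bar the mean and SD. Rag1 in DCKO spreads from 2091 to 6799 CPM, whereas Xrcc6 lies between 524 and 660 CPM in all 12 libraries.

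Rag1 and Rag2, the subunits of the recombinase, lie side by side on mouse chromosome 2 in GRCm38: Rag2 (ENSMUSG00000032864) at chr2:101624718-101632529 on the plus strand and Rag1 (ENSMUSG00000061311) at chr2:101638282-101649501 on the minus strand, with 5752 bases between their facing 3′ ends. Their promoters, from RefSeq on GRCm38.p6, are shown because the genes share a locus and their ratio in DCKO lay above every control value. Each window has 300 bases around the first transcribed base and is written 5′ to 3′ on the strand of the gene (Rag1 at chr2:101649483-101649782, minus; Rag2 at chr2:101624462-101624761, plus). Capitals mark matches on either strand to 9 motifs searched: the core TGTGGT bound by RUNX factors, the E box CAGGTG, the core CCGGAA bound by ETS factors, the core AGATAA bound by GATA-family factors, the core TGTTTAC bound by forkhead factors, the core GCGGGAA bound by E2F factors, the TATA box (searched as TATAAA), the GC box (searched as GGGCGG) and the CCAAT box (searched by those letters).
Rag1 promoter: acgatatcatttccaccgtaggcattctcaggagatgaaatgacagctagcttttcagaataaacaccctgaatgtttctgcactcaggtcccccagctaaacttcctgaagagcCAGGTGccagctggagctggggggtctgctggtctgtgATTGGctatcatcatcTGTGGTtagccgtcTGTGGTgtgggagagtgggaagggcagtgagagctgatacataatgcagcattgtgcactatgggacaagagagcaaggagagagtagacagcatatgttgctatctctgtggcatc
Rag2 promoter: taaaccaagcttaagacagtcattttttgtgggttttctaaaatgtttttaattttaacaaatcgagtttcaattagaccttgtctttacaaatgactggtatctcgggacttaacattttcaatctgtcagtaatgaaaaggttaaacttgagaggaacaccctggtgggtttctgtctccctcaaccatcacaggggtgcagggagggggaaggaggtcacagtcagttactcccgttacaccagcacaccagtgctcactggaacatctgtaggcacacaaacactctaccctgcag
The Rag1 window held CAGGTG starting 135 bases before the first transcribed base, CCAAT on the other strand at 97 bases, and TGTGGT at 81 and 67 bases. Of 32851 promoters of this length 20.2% hold CAGGTG, 37.4% CCAAT and 16.8% TGTGGT. The Rag2 window held none of the 9 motifs, of which TGTTTAC (3.65%) and GCGGGAA (4.60%) were the rarest. GC content was 50.0% for Rag1 and 43.0% for Rag2, against a median of 52.7%. A match is a description of the letters and not of binding.

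Rag1 stood at 2486, 1589, 1316 and 1859 CPM in DN3a libraries 1 to 4, at 1629, 846, 748 and 765 CPM in DN3b, and at 5274, 6799, 3094 and 2091 CPM in DCKO. Every DCKO library exceeded every DN3b library, while DCKO library 4 lay below DN3a library 1, and DN3b library 1 lay within the range of DN3a. In DCKO Rag1 rose 4.33-fold over DN3b (log2 2.11 ± 0.37 SE, adjusted p = 0.0019) and 2.38-fold over DN3a (1.25 ± 0.36, adjusted p = 0.0088; edgeR quasi-likelihood test, Benjamini-Hochberg over all genes, as for every adjusted p below unless another tool is named). DCKO libraries 1 and 2 were the highest: without both, the log2 difference was 0.50 from DN3a (adjusted p = 0.247) and 1.38 from DN3b (adjusted p = 0.035).

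Between the control stages the unpaired test left Rag1 short of the threshold (log2 -0.86 ± 0.36, adjusted p = 0.057). The replicate numbers of DN3a and DN3b pair the libraries, and within each of the 4 numbers Rag1 was lower in DN3b, by 0.61 to 1.28 on the log2 CPM scale. With the number as a block the edgeR difference was -0.93 with an adjusted p of 0.00016, and the call was made. DN3b library 1 was the high one of its group, at 1629 CPM against 748 to 846, and without it the unblocked difference was -1.20 (adjusted p = 0.010). This library also had the lowest sum of cycling markers in DN3b (2630 against 4708 to 5130 CPM) and the highest sum of DN3 markers (2572 against 1659 to 1847 CPM), whose part in its Rag1 level was not tested. In the authors' deposited table the difference was -0.82 with an adjusted p of 0.0079.

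Rag2, the partner subunit, was lowest in DN3b. It stood at 192, 196, 151 and 170 CPM in DN3a, at 108, 78.7, 48.4 and 46.5 CPM in DN3b, and at 196, 225, 160 and 106 CPM in DCKO. All DN3b libraries lay below all DN3a libraries, and DCKO libraries 1 to 3 lay within or above the DN3a range while library 4 lay just below DN3b library 1. Rag2 fell 2.52-fold from DN3a to DN3b (log2 -1.33 ± 0.27, adjusted p = 0.0014) and was lower in all 4 pairs. In DCKO it was 2.44-fold higher than in DN3b (log2 1.28 ± 0.27, adjusted p = 0.0061), a call lost without DCKO libraries 1 and 2 (0.92, adjusted p = 0.105). Against DN3a the difference was -0.05 ± 0.27 (adjusted p = 0.89), and -0.43 without DCKO libraries 1 and 2 (adjusted p = 0.285).

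The ratio of Rag1 to Rag2 within a library needs no scaling between libraries. Per kilobase of exon Rag1 exceeded Rag2 by 4.20 to 6.71 times for DN3a, 5.57 to 8.52 times for DN3b and 10.03 to 15.7 times for DCKO, and the DCKO values did not overlap those of either control group. On the log2 scale of counts (pseudocount 2) the ratio averaged 3.32 ± 0.31 for DN3a, 3.83 ± 0.28 for DN3b and 4.56 ± 0.32 for DCKO (SD over 4 libraries). The excess of DCKO was 1.24 over DN3a and 0.73 over DN3b, each with p = 0.0286 in a two-sided exact permutation test, the smallest p that 4 against 4 libraries allow (adjusted p = 0.0857 over 9 ratio comparisons). DN3b exceeded DN3a by 0.51 (exact permutation p = 0.0857, adjusted 0.129), with overlapping values. Libraries 3 and 4 of DCKO, the lower ones for Rag1, had ratios of 4.27 and 4.30, still above the highest control value of 4.04. Leaving out any 1 library kept the excess between 1.12 and 1.36 over DN3a and between 0.59 and 0.82 over DN3b.

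**Figure D2:**
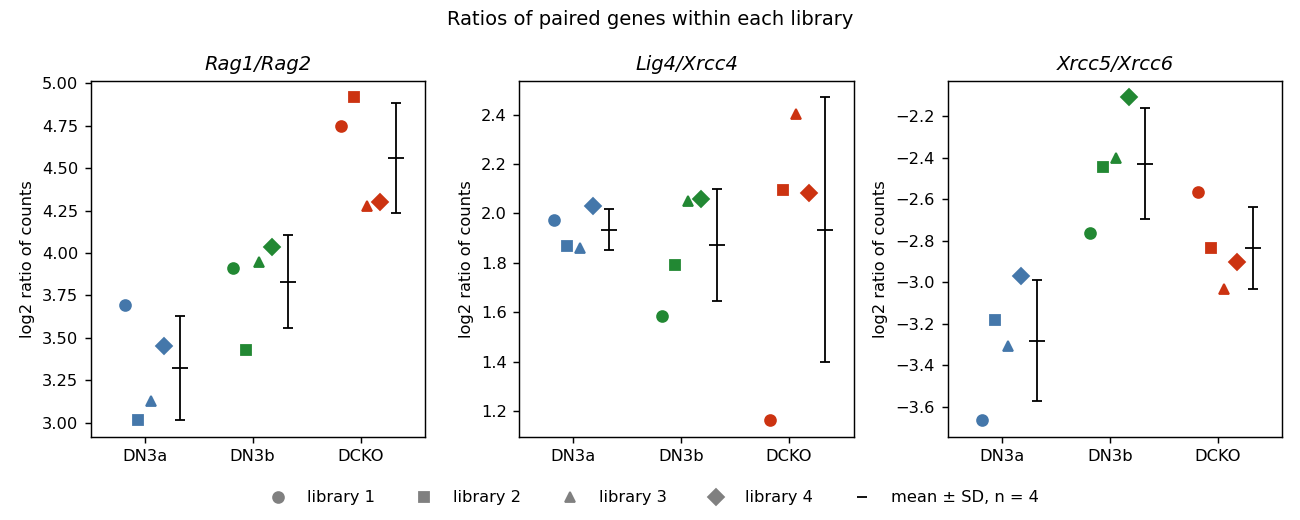
Log2 ratio of the counts of 2 genes within each library (vertical axes, which do not start at 0) for Rag1/Rag2, Lig4/Xrcc4 and Xrcc5/Xrcc6; symbols give the library number, and the dash with its bar the mean and SD of 4 libraries. The 4 DCKO values of Rag1/Rag2, from 4.27 to 4.92, lie above all 8 control values, and DCKO library 1 stands apart for Lig4/Xrcc4 at 1.16.

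The neighbourhood of the locus was read in the same libraries. B230118H07Rik spans both genes and shares 80 exon bases with Rag1 on its strand and 208 with Rag2 on the opposite strand. Its annotated 5′ end, chr2:101649532 on the minus strand, lies inside the Rag1 promoter window shown above. B230118H07Rik stood at 5.35 to 9.23 CPM in DN3a, 5.63 to 9.01 in DN3b and 31.2, 37.1, 11.7 and 9.22 CPM in DCKO libraries 1 to 4. It rose in DCKO over DN3a (log2 1.72 ± 0.39, adjusted p = 0.0021) and over DN3b (1.597 ± 0.39, adjusted p = 0.013), and its counts were 0.34 to 1.18% of those of Rag1 over the 12 libraries. Because the strand setting of the counting is not given, reads on the 208 exon bases shared with Rag2 cannot be assigned to either gene. The 80 bases shared with Rag1 lie on the same strand, so no strand setting would separate them. Rag1 has 6608 annotated exon bases and Rag2 has 3424. Traf6, an adaptor of innate signalling and the next gene beyond Rag1 at 28927 bases, was higher in DCKO than in DN3a by 0.22 ± 0.09 (adjusted p = 0.041) and by 0.25 ± 0.09 over DN3b (adjusted p = 0.062). Beyond Traf6, Prr5l stood at 0.65 CPM or less in every library. On the side of Rag2, the next protein-coding gene after B230118H07Rik in the annotation, Gm10800, lay 2957416 bases away and did not pass the filter.

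Genes most like each subunit over the 12 libraries were sought among 8506 genes whose log2 CPM averaged 3 or more, by the root mean square difference of gene-centred log2 CPM. Predicted genes, pseudogenes and receptor segments were left out. Tmem50b was nearest to Rag1 (0.34, where the spread of Rag1 itself was 0.98), followed by Rgcc, Nfkb2, Asb1 and Stx7. Rag2 ranked 29 in likeness to Rag1 (0.57). Among the 5 genes nearest to Rag2 were Angpt1 (0.23, where Rag2's own spread was 0.75), Nabp1, Papss2 and Cpeb4, and Rag1 ranked 448. The values are descriptions over libraries that share groups.

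The 3′ UTRs were searched because the proteins of the targeted genes bind AU-rich elements. In GENCODE M21 the Rag1 3′ UTR of 3391 bases held 15 copies of ATTTA and 1 of TATTTAT, and the Rag2 3′ UTR of 1599 bases held 2 and 0. Among the other members Dclre1c (5176 bases) held 18 and 6 and Lig4 (1994 bases) 8 and 0. The short 3′ UTRs of Xrcc4 (437 bases) and Xrcc5 (230 bases) held 2 and 0 and 1 and 0. Dntt, Xrcc6, Prkdc and Nhej1 held neither motif. Per kilobase of 3′ UTR, copies of ATTTA were 4.42 for Rag1, 1.25 for Rag2 and 3.48 for Dclre1c. They were 4.01 for Lig4, 4.58 for Xrcc4 and 4.35 for Xrcc5. The median over 11683 tested genes with an annotated 3′ UTR was 1.29. Of these genes 69.7% held ATTTA and 29.8% TATTTAT, and 62.4% of the 1846 whose 3′ UTR has at least 3000 bases held TATTTAT. The only such site of Rag1, 1178 bases after the stop codon, and 2 of the 6 of Dclre1c, at 2505 and 4773 bases, are shown with TATTTAT in capitals, because these genes hold the longer motif and differed from DN3a in opposite directions in DCKO.
Rag1 site: tacattgttTATTTATattttatta
Dclre1c site at 2505: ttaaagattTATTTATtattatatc
Dclre1c site at 4773: tgcatataaTATTTATcaaagtaaa
Binding at these sites was not measured.

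Dntt, the gene of TdT on chromosome 19 (ENSMUSG00000025014, chr19:41029275-41059525, plus strand), was the highest member per kilobase in each group. It stood at 2467, 2961, 2811 and 2482 CPM in DN3a, at 2573, 2425, 1859 and 1666 CPM in DN3b and at 2835, 2343, 3161 and 3260 CPM in DCKO. The 3 groups overlapped. DN3b libraries 3 and 4 were the lowest of all 12, and DCKO libraries 3 and 4, the lower ones for Rag1, were the highest for Dntt. The log2 difference of DN3b from DN3a was -0.33 ± 0.16 (adjusted p = 0.092). With the replicate block Dntt was called lower in DN3b at -0.38 (edgeR adjusted p = 0.021), with 3 of 4 pairs lower, and it was also called without DN3b library 1 (-0.43, adjusted p = 0.034) and with upper quartile scaling (-0.48, 0.025). DCKO differed from DN3a by 0.11 ± 0.16 (adjusted p = 0.55) and from DN3b by 0.44 ± 0.16 (adjusted p = 0.066), the latter passing with DESeq2 (adjusted p = 0.022), limma-voom (0.048) and without DN3b library 1 (0.55, adjusted p = 0.032). The genes nearest to Dntt in pattern, at 0.12 to 0.14 where its own spread was 0.28, were H2-M3, Bloc1s3, Phka2, Hp1bp3 and Bloc1s2.

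Ku is the first complex to bind a broken end, and its subunits behaved unequally. Xrcc5 (Ku80, ENSMUSG00000026187, chr1:72307421-72394952, plus strand) stood at 51.9, 67.3, 60.5 and 69.1 CPM in DN3a, at 81.9, 109, 108 and 129 CPM in DN3b and at 102, 88.5, 72.8 and 70.04 CPM in DCKO. DN3b and DCKO libraries all lay above the highest DN3a library, DCKO library 4 only just. Xrcc5 rose 1.72-fold from DN3a to DN3b (log2 0.78 ± 0.16, adjusted p = 0.0011), in 4 of 4 pairs. It was also higher in DCKO than in DN3a (0.42 ± 0.15, adjusted p = 0.032), a call lost in 10 of 21 alternatives, among them the fits without DCKO library 1 (0.28, adjusted p = 0.145), without DCKO library 2 (0.36, 0.094), without DN3a library 1 (0.34, 0.095), DN3a library 3 (0.41, 0.069), DN3b library 2 (0.39, 0.057) or DN3b library 3 (0.39, 0.057). DCKO differed from DN3b by -0.36 ± 0.15 (adjusted p = 0.118), and by -0.47 without DN3b library 1 (adjusted p = 0.041).

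Xrcc6 (Ku70, ENSMUSG00000022471, chr15:81987835-82040085, plus strand) varied least of the members between groups. It stood at 660, 611, 599 and 542 CPM in DN3a, 556, 595, 569 and 558 CPM in DN3b, and 602, 631, 596 and 524 CPM in DCKO, and the groups overlapped. The log2 differences were -0.08, -0.03 and 0.05, each with an SE of 0.09, for DN3b against DN3a, DCKO against DN3a and DCKO against DN3b (adjusted p = 0.47, 0.76 and 0.76). Upper quartile scaling turned the last to -0.03 and made the second a call (-0.26, adjusted p = 0.031). Desi1, which shares 344 exon bases on the opposite strand, was lower than in DN3a in both other groups (-0.41 ± 0.13 in DN3b, adjusted p = 0.019, and -0.39 ± 0.13 in DCKO, 0.021). The log2 ratio of Xrcc5 to Xrcc6 counts was -3.28 ± 0.29 in DN3a, -2.43 ± 0.27 in DN3b and -2.83 ± 0.20 in DCKO. DN3b exceeded DN3a without overlap (0.85, exact permutation p = 0.0286, adjusted 0.0857). DCKO lay between them, 0.45 above DN3a and 0.41 below DN3b, with overlap on both sides (each exact permutation p = 0.0571, adjusted 0.103).

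Prkdc (ENSMUSG00000022672, chr16:15637866-15842235, plus strand), the kinase that Ku recruits, stood at 149, 194, 165 and 162 CPM in DN3a, at 114, 146, 138 and 122 CPM in DN3b and at 122, 127, 130 and 102 CPM in DCKO. DN3a lay above both other groups without overlap, and DN3b and DCKO overlapped. Prkdc fell 1.29-fold from DN3a to DN3b (log2 -0.37 ± 0.11, adjusted p = 0.016), in 4 of 4 pairs, a call lost without DN3a library 2 (-0.29, adjusted p = 0.055). In DCKO it was 1.40-fold lower than in DN3a (-0.48 ± 0.11, adjusted p = 0.0027). DCKO and DN3b differed by -0.11 ± 0.11 (adjusted p = 0.52).

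Dclre1c (ENSMUSG00000026648, chr2:3424131-3464130, plus strand) encodes Artemis, the nuclease that opens the hairpins. It stood at 49.5, 55.0, 47.3 and 39.0 CPM in DN3a, at 28.1, 25.8, 19.5 and 16.7 CPM in DN3b and at 24.4, 26.2, 26.1 and 16.7 CPM in DCKO. Every DN3a library exceeded every library of the other groups. Dclre1c fell 2.12-fold from DN3a to DN3b (log2 -1.08 ± 0.19, adjusted p = 0.00048) and was 2.04-fold lower in DCKO than in DN3a (-1.03 ± 0.19, adjusted p = 0.00045), the smallest adjusted p of any member in either comparison. DCKO and DN3b differed by 0.05 ± 0.19 (adjusted p = 0.88), with a sign that changed among alternatives. Suv39h2, a histone methyltransferase gene that shares 357 exon bases with Dclre1c on the opposite strand, moved the other way, with 11.9 ± 3.93 CPM (SD, n = 4) for DN3a, 24.9 ± 6.74 CPM for DN3b and 27.4 ± 4.04 CPM for DCKO (log2 1.06 ± 0.24, adjusted p = 0.0025, and 1.20 ± 0.24, 0.00084).

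Lig4 and Xrcc4 encode DNA ligase IV and the scaffold that stabilises it, and both were called in the same direction in each comparison. Their RefSeq promoters (GRCm38.p6, minus strand for both) are shown for that reason, with the same 9 motifs in capitals: Lig4 at chr8:9977631-9977930 and Xrcc4 at chr13:90089559-90089858.
Lig4 promoter: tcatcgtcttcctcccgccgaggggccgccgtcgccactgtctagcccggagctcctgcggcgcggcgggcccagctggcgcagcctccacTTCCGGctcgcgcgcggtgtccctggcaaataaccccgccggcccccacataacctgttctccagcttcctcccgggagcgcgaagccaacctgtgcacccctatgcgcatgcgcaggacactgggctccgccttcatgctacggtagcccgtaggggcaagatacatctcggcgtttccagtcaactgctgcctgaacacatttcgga
Xrcc4 promoter: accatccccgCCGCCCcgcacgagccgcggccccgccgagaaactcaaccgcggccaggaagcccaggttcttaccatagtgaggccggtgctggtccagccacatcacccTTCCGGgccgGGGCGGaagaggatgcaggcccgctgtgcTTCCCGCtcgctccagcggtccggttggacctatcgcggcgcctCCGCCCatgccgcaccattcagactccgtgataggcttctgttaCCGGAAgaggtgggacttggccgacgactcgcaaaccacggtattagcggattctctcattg
The ETS core, found in 14.9% of all promoters, was present in both, 159 bases before the first transcribed base of Lig4 and 139 and 12 bases before that of Xrcc4. The other RefSeq start of Lig4 (chr8:9976262-9976561) has it at 30 bases, with 2 GC boxes. Xrcc4 also held 3 GC boxes (in 35.7% of promoters) and an E2F core. GC content was 66.3% and 65.7%. Of the remaining members Dclre1c held an ETS core 13 bases after the first transcribed base, with 3 CCAAT boxes and a GC box. Xrcc6 held 3 GC boxes, an E2F core and a CCAAT box, Dntt a GATA core, Nhej1 a GATA core and 2 GC boxes, and Xrcc5 a CCAAT box. Promoters of 9 members were matched; Prkdc had no entry.

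Lig4 (ENSMUSG00000049717, chr8:9969049-9977686, minus strand) stood at 72.9, 88.7, 74.1 and 84.7 CPM in DN3a, at 50.004, 61.8, 55.0 and 61.5 CPM in DN3b and at 69.9, 107, 138 and 112 CPM in DCKO. All DN3b libraries lay below all others, and DCKO library 1 was below every DN3a library while the other 3 were above. Lig4 fell 1.40-fold from DN3a to DN3b (log2 -0.49 ± 0.17, adjusted p = 0.025), with 4 pairs between -0.43 and -0.54. The call was lost without DN3a library 2 (adjusted p = 0.067) or 4 (0.055) and without DN3b library 1 (0.060) or 3 (0.058). In DCKO Lig4 was 1.88-fold higher than in DN3b (0.91 ± 0.17, adjusted p = 0.0027), in every alternative. Its excess over DN3a (0.42 ± 0.17, adjusted p = 0.043) did not hold in 15 of 21 alternatives, among them the fits without any 1 of DN3a libraries 1, 3 and 4, DN3b libraries 2 to 4 and DCKO libraries 2 to 4 (adjusted p = 0.056 to 0.21); it was 0.24 without DCKO library 3 and 0.63 without DCKO libraries 1 and 2 (adjusted p = 0.0042). In the authors' deposited table it had an adjusted p of 0.059.

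Xrcc4 (ENSMUSG00000021615, chr13:89774027-90089608, minus strand) stood at 18.5, 24.2, 20.4 and 20.7 CPM in DN3a, at 16.6, 17.8, 13.2 and 14.7 CPM in DN3b and at 31.2, 25.1, 26.1 and 26.5 CPM in DCKO. The 3 groups did not overlap, with DCKO highest and DN3b lowest. Xrcc4 fell 1.34-fold from DN3a to DN3b (log2 -0.43 ± 0.13, adjusted p = 0.014), in 4 of 4 pairs, and was 1.74-fold higher in DCKO than in DN3b (0.80 ± 0.13, adjusted p = 0.0012). Its excess of 0.38 ± 0.13 over DN3a (adjusted p = 0.022) was not called in 7 of 21 alternatives, among them the fits without DCKO library 1 (0.28, adjusted p = 0.097), without DN3a library 1 (0.32, 0.062) or 3 (0.37, 0.054) and with upper quartile scaling (0.15, 0.34). Tmem167, which shares 112 exon bases on the opposite strand, rose in DCKO as well (0.72 ± 0.13 over DN3a, adjusted p = 0.00033, and 0.51 ± 0.13 over DN3b, 0.014). Within libraries the log2 ratio of Lig4 to Xrcc4 counts averaged 1.93 ± 0.083 in DN3a, 1.87 ± 0.23 in DN3b and 1.93 ± 0.54 in DCKO, and the 3 differences lay between -0.06 and 0.06 (exact permutation p = 0.69 to 1.0, adjusted 0.88 to 1.0). DCKO library 1 was low at 1.16 against 2.08 to 2.40 in the other 3, and was the lowest value of all 12 libraries.

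Nhej1 (ENSMUSG00000026162, chr1:74967139-75125200, minus strand), the gene of XLF, had the lowest counts of the members. It stood at 6.11, 6.49, 6.85 and 6.24 CPM in DN3a, at 7.33, 7.10, 6.45 and 5.89 CPM in DN3b and at 9.64, 6.10, 7.56 and 10.97 CPM in DCKO. DCKO libraries 1 and 4 were the highest of all 12, and library 2 lay below every DN3a library. The log2 differences were 0.06 ± 0.18 between the control stages (adjusted p = 0.80), 0.41 ± 0.18 for DCKO against DN3a (0.062) and 0.35 ± 0.18 for DCKO against DN3b (0.19). Against DN3a it passed without DCKO library 2 (0.52, adjusted p = 0.020), without DCKO libraries 1 and 2 (0.51, adjusted p = 0.045) and with DESeq2 (adjusted p = 0.040).

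**Figure D3:**
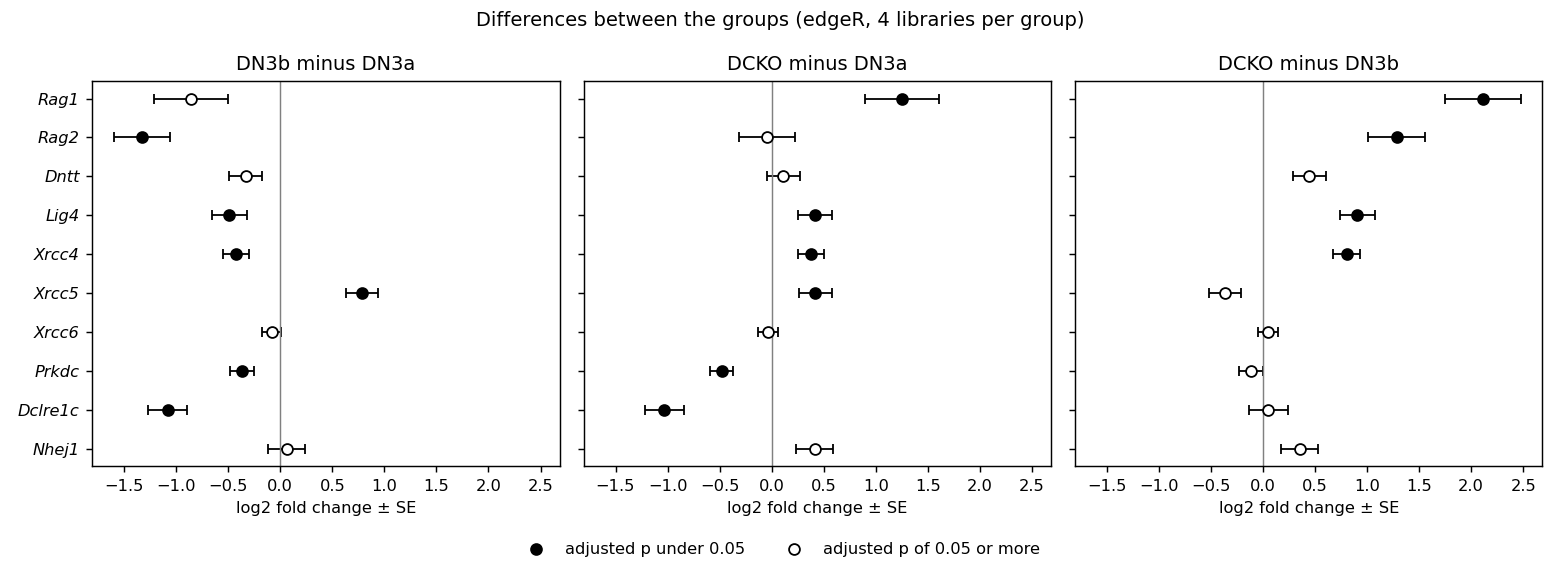
Log2 fold change with its SE (horizontal axes) of the 10 genes in the 3 comparisons, from 1 edgeR fit of 12 libraries; filled points have an adjusted p under 0.05. Dclre1c and Prkdc have filled points below 0 against DN3a in both other groups. In DCKO against DN3b the filled points are Rag1, Rag2, Lig4 and Xrcc4, all above 0.

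Counted together, 6 of the 10 genes were called between the control stages, where 52.6% of all genes tested were called. Rag2, Lig4, Xrcc4, Prkdc and Dclre1c fell in DN3b and Xrcc5 rose. With the replicate block Rag1 and Dntt joined the falls, giving 8 called genes, 1 higher and 7 lower. That fit called 9233 of the 13715 genes it tested. The count without DN3a library 2 was 4. The median log2 difference of the 10 was -0.40 against -0.02 over all genes. Under upper quartile scaling the median over all genes became -0.17 and the split of all calls went from 3815 higher and 3519 lower to 3021 and 4536, and gave 1 member higher and 7 lower.

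In DCKO against DN3a 6 members were called, where 60.2% of all genes were called. Rag1, Lig4, Xrcc4 and Xrcc5 were higher and Prkdc and Dclre1c lower, with a median of 0.25 against -0.04 over all genes. Only 3 were called without DN3a library 1 or DN3a library 3. Under upper quartile scaling the median over all genes became -0.26 and the split of all calls went from 4275 higher and 4116 lower to 3119 and 5528, and then 1 member (Rag1) was higher and 3 were lower. In DCKO against DN3b 4 members were called, Rag1, Rag2, Lig4 and Xrcc4, all higher, where 18.9% of all genes were called (3 without DCKO libraries 1 and 2). The median was 0.40 against -0.02, and upper quartile scaling, with a median of -0.10 over all genes and a split of 1051 higher and 1644 lower in place of 1438 and 1197, left 4 higher and 0 lower. The comparisons share libraries, so their counts are not independent of each other. By the authors' deposited DESeq2 results, in the same order, 7, 5 and 4 members had an adjusted p under 0.05. The share of all genes under it in those results is not given here.

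**Figure D4:**
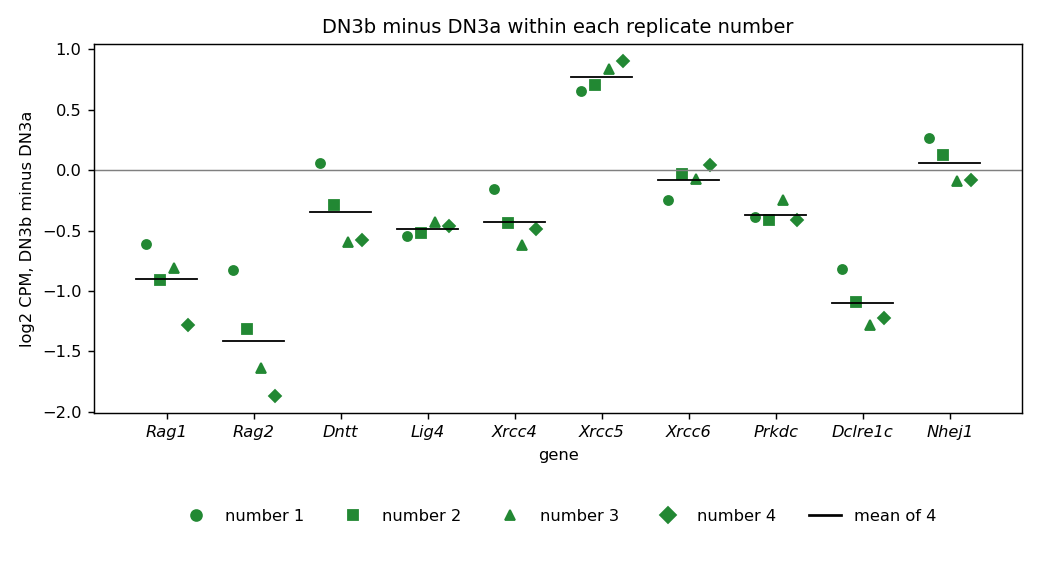
Log2 CPM of DN3b minus DN3a (vertical axis) for the 10 genes within each of the 4 replicate numbers, with the mean as a line. Rag1, Rag2, Lig4, Xrcc4, Prkdc and Dclre1c lie below 0 in all 4 numbers, Xrcc5 lies above 0 in all 4, and number 1 shows the smallest drop for Rag1, Rag2, Xrcc4 and Dclre1c.

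Other factors of end joining and of the response to breaks were read from a list of 24 genes, 23 of them in the table. From DN3a to DN3b 10 rose and 3 fell, with a median of 0.32, where 52.6% of all genes were called. Only 1 fell without DN3a library 1 or without DN3b library 3 or 4. The histone gene H2afx, whose product is phosphorylated beside breaks, rose 2.86-fold (log2 1.52 ± 0.22, adjusted p = 0.00018) and Tdp1, which clears protein from DNA ends, 2.20-fold (1.14 ± 0.18, 0.00025), while Trp53bp1, which shields ends from resection, fell 1.51-fold (-0.59 ± 0.10, 0.00052). With the replicate block, where 9233 of 13715 genes were called, 12 rose and 5 fell. Between DCKO and DN3a, where 60.2% of all genes were called, 11 were higher in DCKO and 5 lower, with a median of 0.25, among them H2afx at 1.54 ± 0.22 (adjusted p = 8.7e-05), Rif1, a partner of the Trp53bp1 product, at 0.84 ± 0.15 (0.00037) and Trp53bp1 at -0.82 ± 0.10 (3.4e-05). The split was 7 and 7 with upper quartile scaling. In DCKO against DN3b, where 18.9% of all genes were called, 1 was higher and 3 lower. The higher count was 0 without DN3b library 2, 3 or 4 or DCKO library 1 and 3 without DCKO library 4, and the lower count ran from 2 to 4 over the alternatives. The lower ones included the gap-filling polymerases Polm (-2.07 ± 0.42, adjusted p = 0.0050) and Poll (-1.92 ± 0.46, 0.012), relatives of TdT; Polm stood at 0.49 ± 0.19, 1.77 ± 0.90 and 0.43 ± 0.14 CPM (SD, n = 4) and Poll at 5.42 ± 3.85, 5.77 ± 0.47 and 1.53 ± 0.83 CPM in the order DN3a, DN3b, DCKO. The higher one was Aptx (0.38 ± 0.11, adjusted p = 0.025), a repair factor for blocked ends.

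The other routes of break repair were set beside the members. Of all genes tested, 52.6% were called from DN3a to DN3b, 60.2% in DCKO against DN3a and 18.9% in DCKO against DN3b. Median log2 differences over all genes were -0.02, -0.04 and -0.02 in that order. Of 9 genes of alternative end joining 8 rose from DN3a to DN3b and 0 fell (median 1.05), and 8 were higher in DCKO than in DN3a (median 0.82; 5 with upper quartile scaling, 6 without DCKO libraries 1 and 2). The flap nuclease gene Fen1 rose by 1.61 ± 0.16 and 1.597 ± 0.16 on the log2 scale in the 2 comparisons, the end sensor gene Parp1 by 0.92 ± 0.11 and 0.82 ± 0.11, and the polymerase gene Polq by 1.63 ± 0.23 and 1.99 ± 0.23 (adjusted p = 0.00012 or less for each). Of 15 genes of homologous recombination 13 rose and 2 fell in DN3b (median 1.34; leaving out DN3b library 4 gave 0 falls, and leaving out DN3b library 3 or any of DN3a libraries 1 to 3 gave 1), and 13 were higher and 2 lower in DCKO than in DN3a (median 1.14), with Exo1, an end-resecting nuclease, at 1.80 ± 0.25 and 1.79 ± 0.25 (adjusted p = 0.00011 and 5.9e-05). Bard1, the partner of BRCA1, rose by 1.61 ± 0.25 and 1.84 ± 0.25 (adjusted p = 0.00021 and 5.0e-05), Xrcc3, a strand exchange factor, by 1.09 ± 0.13 in DN3b (5.9e-05), and the helicase gene Blm by 1.67 ± 0.24 in DCKO (6.9e-05). Against DN3b, DCKO had 0 of 9 genes called by edgeR in the first list and 1 of 15 in the second, Xrcc3 (-0.42 ± 0.13, adjusted p = 0.041). That call was lost with the replicate block and when any 1 of DCKO libraries 1 to 3, DN3b libraries 1 to 3 or DN3a libraries 3 and 4 was left out. In the first list the smallest adjusted p belonged to Xrcc1 (-0.46, 0.075), Lig3 (0.19, 0.14) and Parp2 (-0.23, 0.17), none of them called. In the second, Rad51b (-0.41, 0.30) and Brca2 (-0.23, 0.41) came after Xrcc3 and were not called. In the first list 1 gene was called lower with upper quartile scaling and without DN3a library 2, DN3b library 1 or DCKO library 4. The cycling markers rose with both lists (421 to 1785 CPM in DN3a and at least 2630 in each DN3b and DCKO library), and their part was not tested.

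Partners of the RAG proteins and of TdT formed a list of 12 genes: the DNA-bending cofactors, the ubiquitin ligase that RAG1 binds, the importins, the S phase kinase and ligase that turn over RAG2, and Dnttip1, whose product binds TdT. From DN3a to DN3b 11 rose and 0 fell (median 0.90; 52.6% of all genes called), among them Cdk2 (1.12 ± 0.14, adjusted p = 6.7e-05) and Skp2 (1.39 ± 0.19, 0.00012), which act in RAG2 turnover, and the importin gene Kpna2 (2.01 ± 0.26, 8.0e-05). In DCKO against DN3a 10 were higher and 0 lower (median 1.46; 60.2% of all genes called), with Rbx1, a RING subunit of cullin ligases, at 1.10 ± 0.10 (adjusted p = 3.8e-06), Cdk2 at 1.51 ± 0.14 (5.4e-06) and Skp2 at 1.78 ± 0.20 (1.3e-05). In DCKO against DN3b (18.9% of all genes called) 3 were higher and 0 lower: Kpna1, an importin that binds RAG1 (0.79 ± 0.16, adjusted p = 0.0054), Dcaf1, the receptor of the RAG1-bound ligase (0.48 ± 0.11, 0.0079), and Rbx1 (0.42 ± 0.09, 0.0081). Without DCKO libraries 1 and 2 the last count was 0, and with the replicate block 1. Those fits called 950 of 14592 and 1062 of 13283 genes. Dnttip1 rose by 0.33 ± 0.11 from DN3a to DN3b (adjusted p = 0.023). The list holds S phase genes, and the cycling markers moved with it (421 to 1785 CPM in DN3a and at least 2630 in each DN3b and DCKO library); their part was not tested.

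Among 18 regulators of the Rag genes 5 rose and 6 fell from DN3a to DN3b, 3 were higher and 6 lower in DCKO than in DN3a, and 3 were higher and 3 lower in DCKO than in DN3b (medians -0.13, -0.08 and -0.01), beside 52.6%, 60.2% and 18.9% of all genes called. With the replicate block, where 9233 of 13715 genes were called, 6 rose and 9 fell in the first comparison. Against DN3a, 4 were higher and 3 lower without DCKO libraries 1 and 2, and 1 and 8 with upper quartile scaling. Against DN3b the counts were 5 and 5 without DN3b library 1, 6 and 3 by DESeq2, and 1 and 3 with the replicate block. Those fits called 2395 of 14175, 3348 of 13944 and 1062 of 13283 genes. Id3, an inhibitor of E proteins, stood at 4.27 ± 0.90 CPM in DN3a, 17.4 ± 3.80 CPM in DN3b and 3.82 ± 1.35 CPM in DCKO (SD over 4 libraries). It rose from DN3a to DN3b (log2 2.02 ± 0.26, adjusted p = 7.5e-05) and was lower in DCKO than in DN3b (-2.19 ± 0.26, 0.00016), with -0.16 ± 0.26 between DCKO and DN3a (0.60). Myb, a transcription factor of thymocytes, stood 0.84 ± 0.15 higher in DCKO than in DN3b (adjusted p = 0.0025) and Lef1, a partner of beta-catenin, 1.28 lower (log2 -1.28 ± 0.18, 0.00055). The forkhead gene Foxo1, an activator of Rag transcription, had 9.17 ± 1.91, 7.35 ± 2.27 and 2.74 ± 1.43 CPM and was lower in DCKO than in DN3a (-1.73 ± 0.39, adjusted p = 0.0021). Id2, the other inhibitor of E proteins listed, was lower in DCKO than in DN3a as well (-1.22 ± 0.32, 0.0052), and Gfi1b, a repressor of Rag transcription, was higher (2.72 ± 0.55, 0.00093) at 5.89 ± 2.06 against 0.89 ± 0.70 CPM. Both moved the same way from DN3a to DN3b (Id2 by -1.30 ± 0.32, adjusted p = 0.0044, and Gfi1b by 1.46 ± 0.54, 0.036). Between DCKO and DN3b neither was called (Id2 0.08 ± 0.32, adjusted p = 0.89, and Gfi1b 1.27 ± 0.51, 0.10). In the step to DN3b Foxp1 fell (-0.62 ± 0.10, adjusted p = 0.00042) and Tcf7 rose (0.99 ± 0.18, 0.00054).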

How the data were processed

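The authors deposited a table of whole-number counts per Ensembl gene for 12 libraries. Per the labels' protocols, cells were sorted by flow cytometry, the RNA came from RNeasy Micro columns, and TruSeq chemistry that keeps the strand and depletes ribosomal RNA made the libraries. The submitters' processing notes name the build GRCm38 and the tools DESeq2 1.6.3, HTSeq, TopHat2 2.0.12 and Trim Galore. Which annotation was counted, and with what strand setting, is not given in the sources used here. The authors' deposited DESeq2 tables hold log2 fold changes and p-values, and serve only where named. A deposited table of size-factor-scaled signal was not used.

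Symbols, coordinates and exon lengths are from GENCODE M21 (GRCm38), promoters from RefSeq (GRCm38.p6). All 12 libraries entered 1 edgeR 4.0.16 quasi-likelihood fit (R 4.3.3, TMM, filterByExpr with a count minimum of 10, 9 residual degrees of freedom, two-sided, threshold 0.05), which was tested on simulated data. DESeq2 1.42.0 and limma 3.58.1 (voom) were alternatives, with other scalings, filters, a replicate block and libraries left out. The SE is the log2 fold change divided by the square root of F. Same-numbered DN3a and DN3b libraries deviated together from their group means (r = 0.44, 0.56, 0.35 and 0.52 for numbers 1 to 4), so the blocked fit is given beside results of that comparison whose call it changes. All members are named, with up to 3 genes per list and comparison of smallest adjusted p; Polm and Poll levels, Dnttip1 and the overlapping genes were added after their values were seen. A few named genes are not reported here. The members and lists were chosen with earlier results of these data known.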

Additional observations from a re-analysis of the deposited data

Results flagged for a closer look

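Rag1 in DN3b library 1, at 1629 CPM, stood apart from the other 3 DN3b libraries: its gap to the nearest was 0.889 of the range of the group, above Dixon's 95% critical value for 4 samples. It was the only one of 39 groups of 4 values examined (10 genes and 3 ratios in 3 groups) to do so. Chance flags about 1 group in 20, and 1 in 39 does not exceed that rate.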

How the results depend on the processing

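Of 16 member differences called, 9 kept their call and 0 changed sign in all 21 alternatives, and of 14 not called 6 passed in at least 1 of them. Leaving out 1 library at a time, the members called ranged from 4 to 7 between the control stages, from 3 to 6 for DCKO against DN3a and from 4 to 6 for DCKO against DN3b, and the genes called ranged from 6253 to 7790, from 7622 to 8699 and from 1601 to 3249. The lowest counts came without DN3a library 1 or 3 for members in DCKO against DN3a and without DN3b library 2 (1670) or 3 (1601) and DCKO library 1 (1730) or 2 (1654) for genes in DCKO against DN3b. The Rag1/Rag2 ratio ranged from 0.41 to 0.65, from 1.12 to 1.36 and from 0.59 to 0.82 in the same order. With CPM of at least 1 in at least 4 libraries required, 3 members were called in DCKO against DN3a; the cause was not tested. Without DCKO libraries 1 and 2 together, 950 genes were called in DCKO against DN3b. The replicate block of the 8 libraries compared raised the genes called between the control stages to 9233. DCKO numbers did not pair with the control numbers (r from -0.26 to 0.12); with that block 3 members were called against DN3a and 1062 genes against DN3b, and the Rag1/Rag2 excess of 1.24 and 0.73 had an exact sign-flip permutation p of 0.125, the smallest that 4 pairs allow. For Xrcc5/Xrcc6 the block gave 0.85 with the same p. No other count of members or of all genes moved by over 1.5 times. Differences that were not called changed sign for Rag2 in DCKO against DN3a (from -0.23 to 0.13 over libraries left out, above 0 without DN3a library 2 or DCKO library 4, and -0.43 without DCKO libraries 1 and 2), Dntt (-0.11 with upper quartile scaling), Xrcc6 against DN3a (from -0.099 to 0.024, above 0 without DN3a library 1 or DCKO library 4) and against DN3b (from -0.0062 to 0.10, below 0 without DCKO library 2, and -0.032 with upper quartile scaling and -0.025 without DCKO libraries 1 and 2), and Nhej1 between the control stages (-0.085 with upper quartile scaling). Dclre1c against DN3b gave -0.030 with upper quartile scaling, -0.075 without DCKO libraries 1 and 2, and from -0.088 to 0.18 over libraries left out, below 0 without DN3b library 3 or 4 or DCKO library 2 or 3. The Lig4/Xrcc4 ratio, added with Xrcc5/Xrcc6 and the list counts after the data were seen, ranged over libraries left out from -0.12 to 0.033 between the control stages, from -0.15 to 0.26 for DCKO against DN3a and from -0.092 to 0.32 for DCKO against DN3b, with its highest values without DN3b library 1, DCKO library 1 and DCKO library 1. Nhej1 had as few as 181 counts in a library and Xrcc4 452, so counting error bears most on Nhej1.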
